A study of Mus musculus with 45 samples.

Results

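The 10 glutathione S-transferase genes Gstp1, Gstp2, Gsta1, Gsta2, Gsta3, Gsta4, Gstm1, Gstm2, Gstm3 and Gstt1 were followed in mouse liver before and after partial hepatectomy. They belong to the pi, alpha, mu and theta classes, were chosen by name, and were matched by Ensembl identifier to the deposited table of 19966 gene counts. All 10 were found, and all 10 were among the 14090 genes left by the filter on low counts. The study sequenced polyadenylated RNA from whole livers of C57Bl/6 mice on a normal diet that were 8 to 12 weeks old at surgery. Wild-type (WT) mice were set against Uhrf1hepKO mice (KO below), by its name a knockout of Uhrf1 in hepatocytes. The labels do not name the Cre driver or the targeted allele. Partial hepatectomy removes part of the liver and starts its regrowth. Livers of each genotype were taken at baseline, or 24, 30, 40, 48 or 96 h after surgery, or when 7 days or 4 weeks had passed. That makes 16 groups and 45 libraries, with 3 libraries in a group except for 2 in the WT groups of 30 and 48 h and in the 7 day group of KO. The titles of the baseline libraries say only baseline, and their library names begin with 40hrs_b. Whether these livers were unoperated or came from mice of the 40 h groups is not stated there. The labels do not say whether libraries of a group came from separate animals, so p-values measure the spread between these libraries, which may be technical.

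Glutathione S-transferases join glutathione to electrophilic drugs, toxins and products of lipid peroxidation, which makes these compounds soluble and ready for export. The liver holds large amounts of them, and the alpha and mu genes are known targets of the stress factor NRF2 and of the drug-sensing receptors CAR and PXR. Uhrf1 encodes a protein that reads hemimethylated DNA and brings the maintenance methyltransferase to it during replication.

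By the GENCODE annotation of GRCm38, the members lie in 5 places. Gstp1 (ENSMUSG00000060803, chromosome 19, 4035407 to 4037985) and Gstp2 (ENSMUSG00000038155, chromosome 19, 4040285 to 4046023) are neighbours on the minus strand. Gsta4 (78182774 to 78209349), Gsta1 (78230656 to 78242684) and Gsta2 (78331018 to 78355788) are close together on chromosome 9. Gstm3 (107963696 to 107969283), Gstm2 (107981702 to 107986453) and Gstm1 (108012255 to 108017973) sit on the minus strand of chromosome 3. Gsta3 is on chromosome 1 (21240589 to 21265661), where it overlaps the antisense gene Gm28836, and Gstt1 is on chromosome 10 (75783813 to 75798584).

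Several members share sequence, which limits what a read count can tell. Of all 100-base windows in the annotated transcripts of Gstp2, 46.9% also occur in a transcript of another gene. Most of those shared windows, 486 of 548, are found in Gstp1, and 272 are found in the pseudogene Gstp-ps. The share was 80.6% for Gsta1, mainly with Gm3776, and 28.4% for Gsta2 and 25.1% for Gstp1. It was 13.8% for Gstm3, 5.86% for Gstm1, 0.357% for Gstm2 and 0 for Gsta3, Gsta4 and Gstt1. Counts of Gstp2, Gsta1, Gsta2 and Gstp1 are therefore uncertain wherever the counting had to choose between copies.

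The promoters of Gstp1 and Gstp2 are shown because these neighbours are near copies whose reads are hard to tell apart. Both are RefSeq sequences of GRCm38.p6 on the minus strand, 300 bases each, from 250 bases before the start site to 50 after it. Gstp1 spans chr19:4037863-4038162 and Gstp2 spans chr19:4042172-4042471. Capitals mark bases that differ between the pair or have no partner in their alignment.
Gstp1: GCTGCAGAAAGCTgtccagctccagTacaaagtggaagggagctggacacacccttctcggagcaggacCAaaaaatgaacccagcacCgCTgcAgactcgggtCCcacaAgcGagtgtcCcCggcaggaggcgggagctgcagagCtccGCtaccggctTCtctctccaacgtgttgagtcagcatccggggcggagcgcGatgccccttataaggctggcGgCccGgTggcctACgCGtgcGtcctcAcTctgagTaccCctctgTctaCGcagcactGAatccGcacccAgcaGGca
Gstp2: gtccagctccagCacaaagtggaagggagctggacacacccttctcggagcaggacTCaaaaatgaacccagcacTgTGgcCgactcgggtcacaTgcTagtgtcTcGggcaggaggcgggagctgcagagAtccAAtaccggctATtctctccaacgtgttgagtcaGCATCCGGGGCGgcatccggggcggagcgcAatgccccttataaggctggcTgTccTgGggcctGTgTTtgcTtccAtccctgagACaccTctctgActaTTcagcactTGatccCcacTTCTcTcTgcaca
In the alignment, 246 of 281 paired bases were identical (87.5%), and 35 were mismatched. Gstp1 held 20 CpG dinucleotides and Gstp2 held 12, counts reached by 26.8% and 40.2% of all 27018 promoters in the table. The letters TGAGTCA, the core bound by AP-1 type factors, were searched on both strands and occurred once in each of the pair, 74 bases before the start in Gstp1 and 89 before it in Gstp2. They occur in 5.17% of all promoters of this length. The GC box GGGCGG occurred once in Gstp1 and 2 times in Gstp2, against 35.9% of all promoters with at least 1. The antioxidant response core TGACNNNGC, present in 12.5% of promoters, was found among the 9 members with an entry only in Gsta3. Only this spelling of the core was searched. It does not cover TGAGTCA followed by GC, which both promoters shown hold. A match or its absence describes these letters in this window only.

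Total counts ran from 12851359 to 23133501 per library. Hepatocyte markers fitted the tissue label. All 8 were tested, and their summed level was between 70560 and 112069 CPM in the 24 h and baseline libraries. CPM is the edgeR unit of counts scaled to a common library size, here after TMM scaling. Uhrf1 was at 27.5 to 107 CPM in WT and 3.59 to 8.95 CPM in KO at 40 h, and at most 0.644 CPM in the baseline libraries of either genotype. In the average over the 7 conditions other than 96 h, its KO minus WT difference was -1.89 ± 0.32 (log2, SE, edgeR quasi-likelihood test, adjusted p = 0.000261). The libraries labelled WT at 96 h stood apart from the other WT libraries. Bglap3 and Rhox5, which separate the genotypes elsewhere, were at 9.38 to 28.4 CPM and 2.86 to 9.58 CPM there, against 0.112 to 1.53 CPM and 0 to 0.590 CPM in the other 19 WT libraries. Those 96 h levels fall in or above the range of the 20 other KO libraries (3.18 to 17.4 and 1.91 to 17.1 CPM). Results below therefore leave 96 h out unless it is named. In bulk liver, fewer cells of a type and less RNA per cell cannot be told apart.

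Levels between genes were compared per length, in the deposited FPKM (fragments per kilobase, scaled to library size). In WT livers at baseline, Gstp1 was highest with 1806 ± 229 FPKM (SD, n = 3), followed by Gsta3 with 1464 ± 458 FPKM and Gstm1 with 902 ± 85.0 FPKM. Gstp2 was listed at 467 ± 80.7 FPKM and Gstt1 at 206 ± 28.2 FPKM. The remaining 5 were lower, from Gstm2 with 55.7 ± 12.5 FPKM to Gsta1 with 3.85 ± 3.33 FPKM. In the gene counts, Gstp2 had 40, 15 and 11 counts in the same libraries, against 11340 to 15588 for Gstp1. Its place in this order therefore holds for FPKM only. Libraries of Gstp1 overlapped those of Gsta3, and the neighbours Gstm2, Gstm3, Gsta4 and Gsta2 overlapped each in turn, so the order within those runs is not settled by 3 libraries.

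Gstp2 encodes the less studied of the paired pi class enzymes, and in the gene counts it was the member with a genotype difference at most times. At baseline it was at 2.92, 1.07 and 0.840 CPM in WT and at 6.12, 5.13 and 6.69 CPM in KO. At 24 h the WT libraries held 1.65, 0.977 and 1.36 CPM and the KO libraries 6.31, 4.96 and 6.83 CPM. No WT library reached the lowest KO library at either time, a separation that 6.56% and 4.59% of all genes showed in that direction. Neither difference passed the test: log2 1.89 ± 0.46 (SE) at baseline, with adjusted p = 0.127, and log2 2.17 ± 0.45 at 24 h, with adjusted p = 0.0665, both by edgeR's quasi-likelihood test.

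At 30 h Gstp2 was at 1.29 and 0.848 CPM in WT and at 10.5, 5.73 and 11.3 CPM in KO. At 40 h WT was at 1.41, 1.92 and 1.38 CPM and KO at 9.42, 8.02 and 12.0 CPM. At 48 h WT was at 1.04 and 1.57 CPM and KO at 20.7, 22.8 and 9.68 CPM. Every KO library was above every WT library at these times. At 7 days WT livers held 1.09, 0.779 and 1.47 CPM and KO livers 16.1 and 23.3 CPM. At 4 weeks WT livers held 2.12, 2.26 and 3.20 CPM and KO livers 18.4, 18.4 and 41.2 CPM. The highest value of all 45 libraries, 41.2 CPM, was KO replicate 3 at 4 weeks.

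The KO minus WT difference of Gstp2 passed the edgeR quasi-likelihood test at 5 of the 7 conditions. It was log2 3.13 ± 0.56 at 30 h (adjusted p = 0.00478) and 2.63 ± 0.44 at 40 h (adjusted p = 0.00211). At 48 h it was 3.77 ± 0.53 (adjusted p = 0.000163). At 7 days it was 4.15 ± 0.49 (adjusted p = 6.49e-06), and at 4 weeks 3.38 ± 0.42 (adjusted p = 1.52e-05). These 5 were the only member calls: none of the 10 was called at baseline or 24 h, where 0.0852% and 0.0426% of all genes were called, although 2 members in each had an unadjusted p under 0.05. At 30, 40 and 48 h, 7 days and 4 weeks the share of all genes called was 0.937%, 0.142%, 0.135%, 0.135% and 0.22%. Over the 7 conditions, 6 genes of 14090 were called higher in KO at 5 or more, Gstp2 among them. The 30 h call rested on the pair of WT libraries, and was lost without WT replicate 2 (log2 3.43, adjusted p = 0.0514) or WT replicate 3 (log2 2.84, adjusted p = 0.444). Fitted on the libraries of 1 condition alone, the 48 h difference (3.76, adjusted p = 0.491) and the 4 week difference (3.39, adjusted p = 0.121) kept their size and missed the threshold.

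Averaged over the 7 conditions, Gstp2 was 8.09-fold higher in KO (log2 3.02 ± 0.18, adjusted p = 8.05e-14), and 2.13% of all genes were called. Gstp2 libraries did not overlap between the genotypes at 7 of 7 conditions, where KO lay entirely above WT for 5% of all genes at 40 h, 9.99% at 48 h, 9.24% at 7 days and 6.84% at 4 weeks. The lowest of 20 KO libraries held 4.96 CPM and the highest of 19 WT libraries 3.20 CPM.

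**Figure D1:**
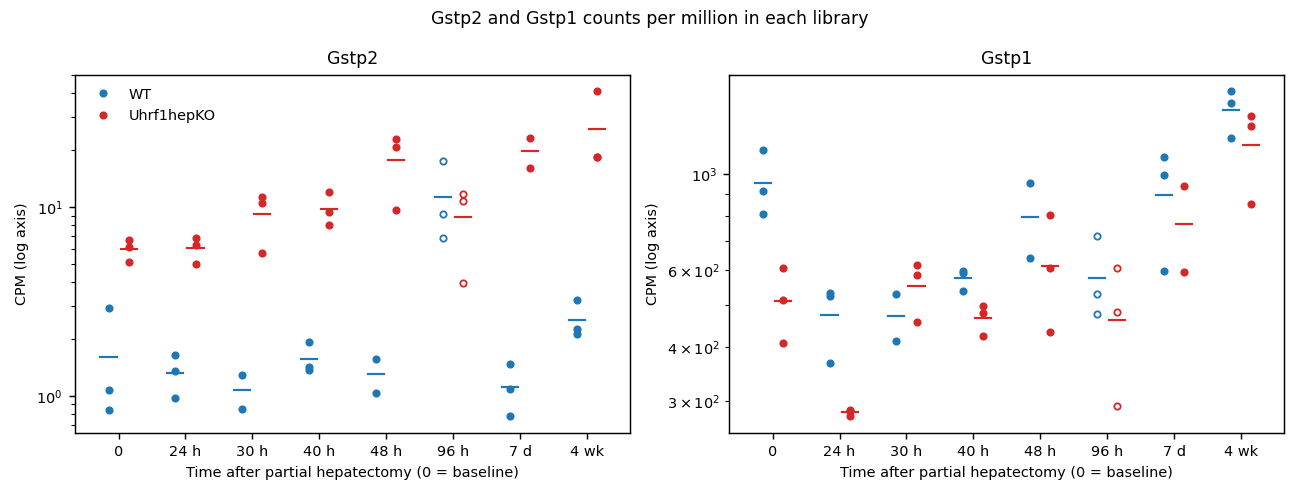
CPM (log axis) of Gstp2 (left) and Gstp1 (right) in each library against time after partial hepatectomy, with WT in blue, Uhrf1hepKO in red and short lines at group means. Open symbols are the libraries labelled 96 h. WT libraries of Gstp2 stay at or under 3.20 CPM outside 96 h, while those labelled WT at 96 h lie among the KO libraries.

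The deposited FPKM table differed from the counts for Gstp2 at most times. There it was at 560, 421 and 420 FPKM in the WT baseline libraries and at 349.8, 229 and 288 FPKM in the KO ones, so the KO libraries were lower. At 30 h the direction was that of the counts: the WT libraries were at 275 and 214 FPKM and all KO libraries were above them, at 348, 298 and 363 FPKM, without passing the test (limma on log2(FPKM + 0.1), 0.47 ± 0.33, SE, adjusted p = 0.603). At 4 weeks it was at 764, 810 and 603 FPKM in WT and at 473, 717 and 750 FPKM in KO, with overlap. In limma on log2(FPKM + 0.1), the average KO minus WT difference was -0.20 ± 0.12 (SE, adjusted p = 0.429), opposite in sign to the counts.

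The tables also disagreed on how much of the pi class is Gstp2. In the counts, Gstp2 made up 0.0917 to 0.368% of the summed Gstp1 and Gstp2 counts in the 19 WT libraries and 0.997 to 3.61% in the 20 KO libraries. In FPKM the share was 19.6 to 21.6% in WT, with a median of 20.6%, and 20.8 to 23.5% in KO, with a median of 21.7%. The FPKM share of the KO libraries lay above all WT libraries of the same condition at 5 of 7 conditions, but by little. With Gstp1 and Gstp2 counts summed, the average difference was log2 -0.34 ± 0.098 (adjusted p = 0.0590, edgeR). Gstp2 was at most 3.61% of that sum, so the sum follows Gstp1 and could hardly show a Gstp2 difference in either direction. Neither Gstp2 in the FPKM table nor the sum was called higher in KO at any of the 7 conditions, and 30 h was the 1 called time at which their differences were above 0 (0.47 in FPKM and 0.25 in the sum). What makes the tables differ was not tested.

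**Figure D2:**
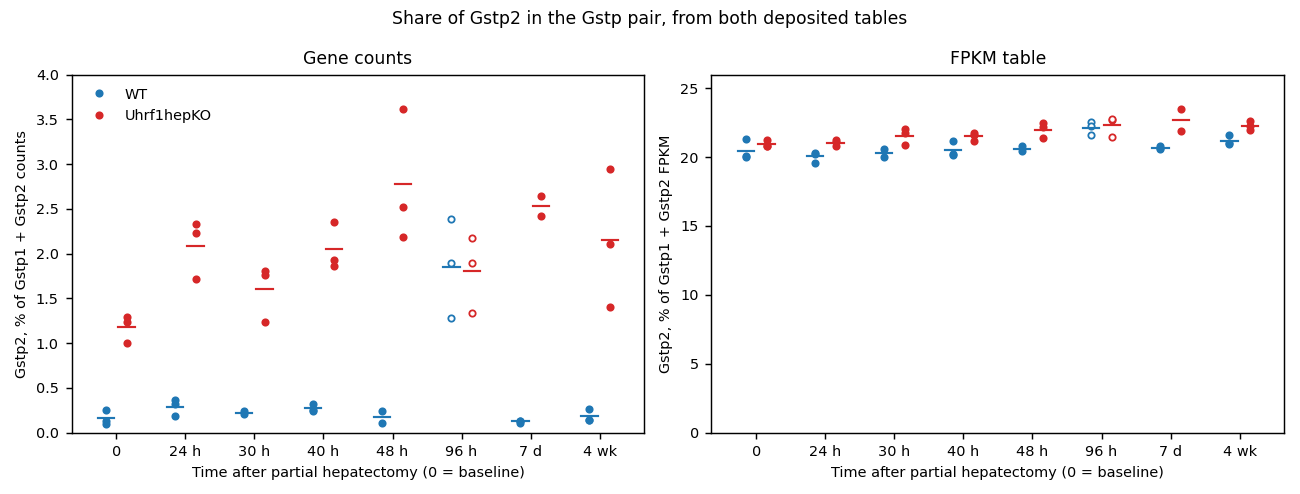
Gstp2 as a percentage of Gstp1 plus Gstp2 in each library, from gene counts (left) and from FPKM (right, another scale), with symbols as in the plot of CPM of Gstp2 and Gstp1. In the counts KO libraries reach 0.997 to 3.61% and WT libraries outside 96 h stay at or under 0.368%, while in FPKM every library lies between 19.6 and 23.5%.

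Gstp1 encodes the major pi class enzyme of mouse liver, which is known to be higher in males. It was lower in KO at baseline, at 608, 409 and 512 CPM against 1138, 811 and 916 CPM in WT. At 24 h it was at 277, 285 and 287 CPM in KO against 523, 531 and 367 CPM in WT. The groups did not overlap at either time, nor at 40 h (6.45% of all genes with KO entirely below). These single differences did not pass the edgeR test (log2 -0.91 ± 0.25 at baseline, adjusted p = 0.243, and -0.74 ± 0.25 at 24 h, adjusted p = 0.921), and among all genes 7.07% and 4.29% had KO libraries entirely below WT.

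Over the 7 conditions Gstp1 was lower in KO by log2 -0.37 ± 0.098 (edgeR, adjusted p = 0.0346), a fold of 0.774. The difference was below 0 at 6 of 7 conditions, with 30 h the exception at 0.23 ± 0.28. It was lost in 14 of 39 refits that each left out 1 library, with adjusted p between 0.0135 and 0.104 over the 39, and in the FPKM table, where the difference was -0.30 ± 0.11 (limma, adjusted p = 0.163). The libraries whose absence ended it were WT replicate 1 at baseline (-0.35, 0.0579), 24 h (-0.36, 0.0529) and 7 days (-0.36, 0.0558), WT replicate 2 at 24 h (-0.36, 0.0571), 30 h (-0.34, 0.0864), 48 h (-0.32, 0.0929) and 4 weeks (-0.36, 0.0580) and WT replicate 3 at 7 days (-0.35, 0.0572), each with its log2 difference and adjusted p. On the KO side they were replicate 2 at baseline (-0.35, 0.0585), 30 h (-0.35, 0.0557) and 40 h (-0.36, 0.0535), replicate 3 at 48 h (-0.34, 0.0524), and replicate 1 at 7 days (-0.33, 0.104) and 4 weeks (-0.34, 0.0596).

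The other 8 members were not called in the average over the 7 conditions by edgeR, and none of them had an unadjusted p under 0.05. Their log2 differences ran from -0.07 ± 0.09 for Gsta3 to 0.50 ± 0.39 for Gsta1. The smallest SE was that of Gstt1, a theta class enzyme that acts on small halogenated compounds, with 0.14 ± 0.07. A miss of the threshold does not show that these genes are equal in both genotypes.

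At 30 h the members leaned one way. KO was above WT for 10 of 10 members, and 7 of 10 had no overlap between the 3 KO and 2 WT libraries, against 15.4% of all genes with KO entirely above. Gstm3, a mu class enzyme, was at 253, 74.6 and 119 CPM in KO and at 31.3 and 28.4 CPM in WT (log2 2.32 ± 0.78, edgeR adjusted p = 0.186). Gsta1, an alpha class enzyme, was at 6.62, 1.32 and 4.996 CPM in KO and at 0.402 and 0.727 CPM in WT (log2 2.90 ± 1.22, adjusted p = 0.338). Of the 7 members without overlap, edgeR called Gstp2 and not the other 6. The median difference of the members was 1.16, against 0.01 over all genes tested. The same KO libraries differed in cell division. Of 20 S phase and mitosis genes, 10 were called higher at 30 h, against 0.937% of all genes called. Among them were Plk1 (2.51 ± 0.63) and Rrm2 (2.45 ± 0.33), and 19 of 20 had an unadjusted p under 0.05. Of 25 NRF2 pathway genes, 1 was called higher and 11 had an unadjusted p under 0.05, against 1512 of 14090 genes. Their median difference was 0.33 and the lowest 0.03. The part of these differences in the members' values was not tested.

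**Figure D3:**
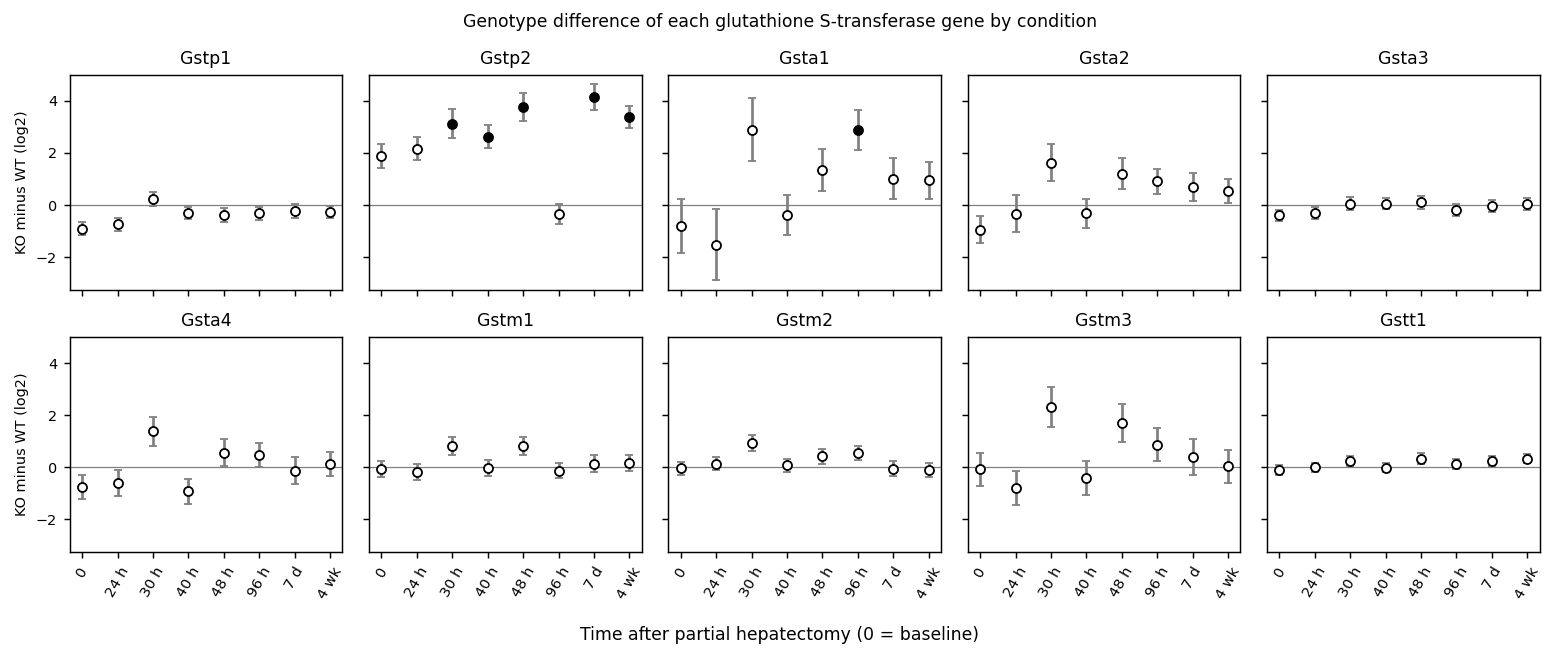
KO minus WT difference (log2, edgeR) of each member by time after partial hepatectomy, with bars of 1 SE and filled symbols for an adjusted p under 0.05. Gstp2 is above 0 at all 7 conditions other than 96 h, and Gsta1, filled at 96 h as labelled, is the only other filled point.

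At 96 h as labelled, 14.3% of all genes were called between the genotypes, and 1 of 10 members was. The libraries labelled KO held 7.29, 31.0 and 53.8 CPM of Gsta1, and those labelled WT held 5.54, 3.71 and 3.12 CPM, a difference of log2 2.89 ± 0.78 (adjusted p = 0.0122 by edgeR). The call was lost without the library labelled WT replicate 2 (2.82, adjusted p = 0.0508) or KO replicate 3 (2.22, adjusted p = 0.0548), and with the 96 h libraries fitted alone (2.91, adjusted p = 0.0765). Gstp2 was at 6.88, 9.21 and 17.6 CPM in the libraries labelled WT and at 3.96, 10.7 and 11.7 CPM in those labelled KO, so these overlapped (log2 -0.33 ± 0.38). Since Bglap3 and Rhox5 go against the WT label there, no genotype direction is read from this time. Uhrf1 itself was at 0.792, 0.148 and 0.284 CPM in the libraries labelled WT and at 0.27, 1.76 and 2.07 CPM in those labelled KO, a difference opposite to the label that did not pass the test (log2 1.73 ± 0.83, edgeR adjusted p = 0.165). Other lists differed there too in the libraries labelled KO: 12 of 20 S phase and mitosis genes were higher, 12 of 17 male-biased liver genes lower and 5 of 11 female-biased ones higher. Of the monocyte and neutrophil markers 4 of 6 tested were higher, with a summed level of the 8 listed at 32.6 to 87.6 CPM against 2.90 to 4.57 CPM, and Mpo at 0 counts in the libraries labelled WT. The part of these differences in the Gsta1 call was not tested.

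Most members differed from baseline 24 h after partial hepatectomy, in both genotypes. The series has no sham-operated group, so the part of hepatectomy itself in these differences was not tested. Of the 10 members, 6 fell and none rose in WT at 24 h, where 22.4% of all genes were called, and 6 fell and 1 rose in KO, where 23.7% were called. The median member difference from baseline was -0.99 in WT and -1.11 in KO, against -0.004 and -0.006 over all genes. All times of a genotype are compared with the same 3 baseline libraries, so these comparisons are not independent of each other.

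Gsta3, the main alpha class enzyme of mouse liver and known for detoxifying aflatoxin epoxide, showed the fall most plainly. It was at 1678, 1393 and 2584 CPM in WT at baseline and at 446, 705 and 473 CPM at 24 h (log2 -1.80 ± 0.22, edgeR adjusted p = 2.67e-07). In KO it went from 1417, 1538 and 1332 CPM to 403, 485 and 421 CPM (log2 -1.71 ± 0.22, adjusted p = 5.21e-07). The baseline and 24 h libraries did not overlap in either genotype. By 48 h it was still lower in WT, at 859 and 843 CPM (-1.15 ± 0.25, adjusted p = 0.000555), and at 4 weeks it was back at 1452 to 1763 CPM in WT and 1552 to 1736 CPM in KO.

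Gstt1 followed the same course. At baseline it was at 271, 186 and 246 CPM in WT, and at 24 h at 88.8, 112 and 88.2 CPM (log2 -1.29 ± 0.18, edgeR adjusted p = 2.11e-06). In KO it fell from 212, 232 and 211 CPM to 85.5, 104 and 99.5 CPM (-1.18 ± 0.18, adjusted p = 7.31e-06). The difference from baseline was called in both genotypes at each of 24, 30, 40 and 48 h, and held in every refit that left out 1 library. At 4 weeks KO livers held 320, 312 and 276 CPM, all above the KO baseline, without passing the test (0.47 ± 0.18, adjusted p = 0.0881).

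Gsta2, an inducible alpha class enzyme, had the largest early fall. WT libraries went from 9.20, 7.44 and 31.9 CPM to 2.32, 2.57 and 0.759 CPM at 24 h (log2 -3.10 ± 0.59, edgeR adjusted p = 0.000227). KO libraries went from 9.50, 6.30 and 9.37 CPM to 1.09, 2.21 and 1.195 CPM (-2.49 ± 0.62, adjusted p = 0.00345). Baseline replicate 3 of WT was far above the other WT baseline libraries, and without it the WT fall was -2.15 (adjusted p = 0.00765).

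Gstp1 fell in WT at 24 h (log2 -1.01 ± 0.25, edgeR adjusted p = 0.00283). In KO it also fell at 24 h (-0.85 ± 0.25, adjusted p = 0.0111), a call lost without KO baseline replicate 1 (-0.70, adjusted p = 0.0704). Gstp2 counts, in contrast, were not called at 24 h in either genotype (-0.27 ± 0.52 in WT and 0.01 ± 0.39 in KO). Gstm1, the most abundant mu class enzyme, was lowest at 40 h, at 431, 591 and 533 CPM in WT and 558, 419 and 541 CPM in KO. That compares with 1390, 1167 and 1221 CPM and 1197, 1038 and 1395 CPM at baseline. Both 40 h falls were called (WT -1.28 ± 0.31, adjusted p = 0.00123, and KO -1.26 ± 0.31, adjusted p = 0.00151).

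Gstm2, a mu class enzyme, moved the other way. In KO it rose from 60.9, 60.4 and 67.2 CPM at baseline to 247, 141 and 232 CPM at 30 h (log2 1.72 ± 0.26, edgeR adjusted p = 5.1e-06). At 48 h it was at 218, 117 and 98.9 CPM (1.199 ± 0.26, adjusted p = 0.000426), of which replicate 1 carried much: without it the rise was 0.78 (adjusted p = 0.0164). In WT its libraries were at 63.3, 76.2 and 54.6 CPM at baseline and at 103 and 114 CPM at 30 h, above baseline without passing the test (0.74 ± 0.28, adjusted p = 0.0677). The genotypes' rises at 30 h were not called different (interaction 0.98 ± 0.39, adjusted p = 0.480).

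In the middle of the course, calls went both ways. In WT, 5 of 10 members fell and none rose at 30 h (17.7% of all genes called), 5 fell and none rose at 40 h (36.5%), and 4 fell and 2 rose at 48 h (31%). In KO, 2 fell and 1 rose at 30 h (33.1%), 3 fell and none rose at 40 h (35.6%), and 2 fell and 4 rose at 48 h (36%). In KO at 30 and 40 h, 3 of 10 members were called, a share near that of all genes. Late in the course, 1 of 10 fell in WT at 7 days (3.56%) and 1 rose at 4 weeks (1.17%). In KO, 3 rose at 7 days (5.56%) and 6 rose at 4 weeks (8.57%), with none falling. Of these 52 time calls, 28 held in every refit that left out 1 library. Without KO baseline replicate 1 or 2, 8 of the 28 KO calls ended, and without WT baseline replicate 1 or 3, 7 of the 24 WT calls did. None of the 3 KO calls at 7 days held without KO replicate 3. The WT rise of Gsta1 at 48 h (2.38 ± 0.91, edgeR adjusted p = 0.0458) was 0.17 without WT replicate 2, and the KO rise of Gstm3 at 48 h (1.66 ± 0.65, adjusted p = 0.0446) was 0.20 without KO replicate 1.

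**Figure D4:**
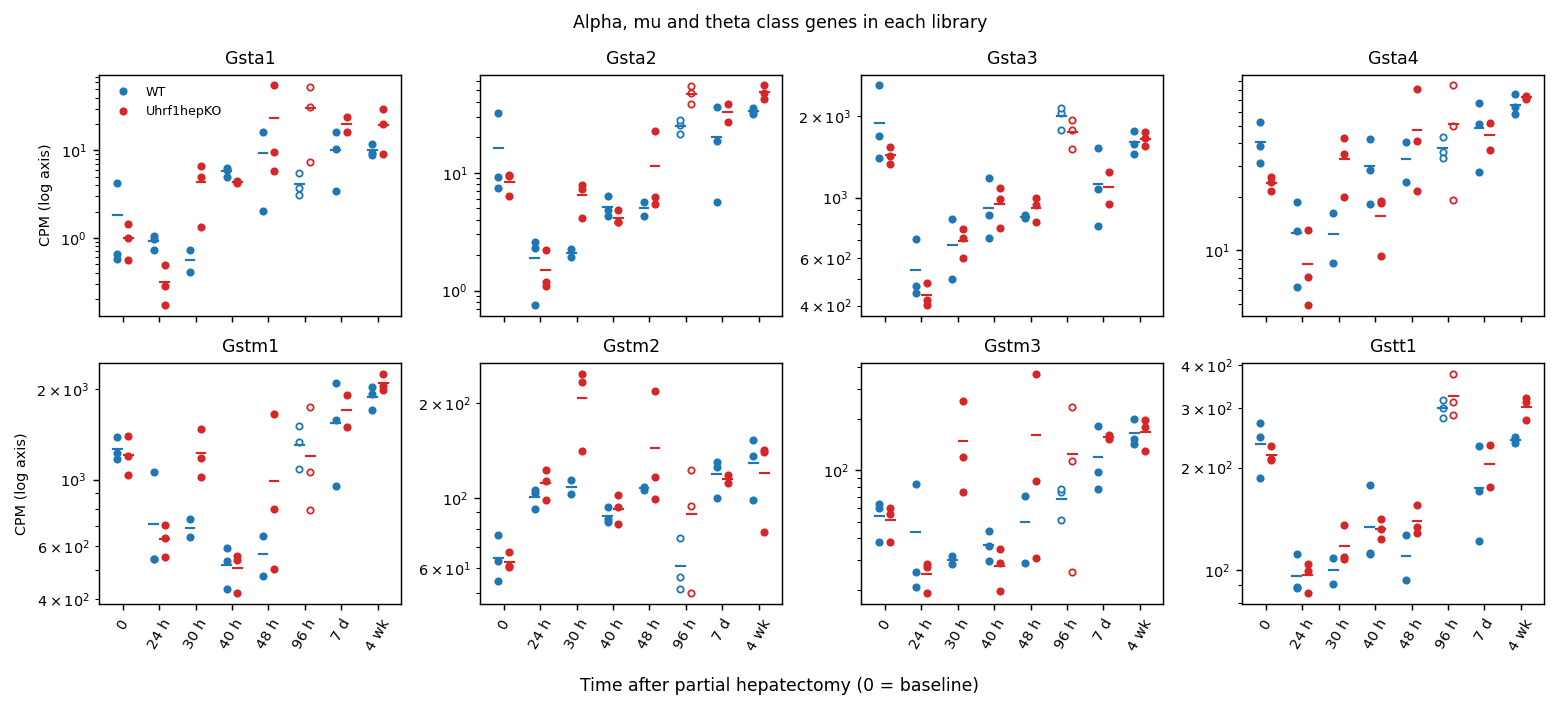
CPM (log axis) of the 8 alpha, mu and theta class members in each library by time after partial hepatectomy, with symbols as in the plot of Gstp2 and Gstp1. Gsta2, Gsta3 and Gstt1 are lowest at 24 h in KO, and KO replicate 1 at 48 h is the highest of its group for all mu class members and for Gsta1.

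Gsta1 had the largest rise. In KO it was at 0.985, 0.556 and 1.44 CPM at baseline and at 55.3, 9.48 and 5.89 CPM at 48 h, 16.2 and 24.1 CPM at 7 days and 29.5, 9.15 and 19.99 CPM at 4 weeks. All of these were above every KO baseline library. The 48 h rise was log2 4.53 ± 0.90 (edgeR adjusted p = 0.000171), and 2.92 without replicate 1 (adjusted p = 0.00688). The 4 week rise was 4.27 ± 0.90 (adjusted p = 0.00481). At 7 days it was 4.30 ± 0.94 (adjusted p = 0.00766), a call lost without KO replicate 3 (4.00, adjusted p = 0.106). In WT Gsta1 went from 0.657, 0.572 and 4.20 CPM at baseline to 12.0, 8.95 and 9.32 CPM at 4 weeks, without overlap and without passing the test (2.49 ± 0.86, adjusted p = 0.157). In FPKM the KO rises were 3.19 at 48 h and 3.34 at 4 weeks, and limma called both.

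At 4 weeks the KO difference from baseline was above 0 for 10 of 10 members, and 6 passed the test, against 8.57% of all genes. These mice had aged 4 weeks since surgery at 8 to 12 weeks, and the part of age in the differences was not tested. Gsta2 stood at 55.0, 42.3 and 47.8 CPM, a rise of log2 2.53 ± 0.51 (adjusted p = 0.0037 by edgeR), Gstp1 at 853, 1289 and 1357 CPM (1.19 ± 0.25, adjusted p = 0.00411), and Gstp2 at the levels given above (2.12 ± 0.39, adjusted p = 0.00158). The calls of Gsta1, Gsta2, Gstp1 and Gstp2 held in every refit that left out 1 library. Those of Gsta4 (1.60 ± 0.47, adjusted p = 0.033) and Gstm2 (0.93 ± 0.26, adjusted p = 0.0232) did not: Gsta4 was lost without any 1 of the 6 libraries, and Gstm2 without any of 5, all but KO replicate 2 at 4 weeks, with adjusted p up to 0.0998 and 0.107. In WT 9 of 10 members were above baseline on average at 4 weeks. Gstm2, the 1 called (0.99 ± 0.26, adjusted p = 0.0477), was lost without any 1 of its 6 libraries, with adjusted p up to 0.193.

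Whether the genotypes followed different courses was tested directly. In the joint edgeR test of the 6 genotype by time terms without 96 h, 0 of 10 members were called, against 0.0426% of all genes, and 4 had an unadjusted p under 0.05: Gstp2 (0.0191), Gstm3 (0.0432), Gsta4 (0.0447) and Gsta2 (0.0484). Among all genes, 798 of 14090 were under 0.05. The single term with the smallest p was that of Gstp2 at 7 days, 2.26 ± 0.69 with adjusted p = 0.465. At 30 h the term was above 0 for 10 of 10 members. There 6 had an unadjusted edgeR p under 0.05, against 1223 of 14090 genes. At 48 h it was also above 0 for 10 of 10, with 2 under 0.05, and at 24 and 40 h 0 were. All terms share the same baseline libraries, and no single term of a member was called. The counts of 6 calls in KO and 1 in WT at 4 weeks are therefore not shown to differ.

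Other lists moved at the same times. At 24 h, with 22.4% of all genes called in WT and 23.7% in KO, the clock genes of the Dbp arm were lower than at baseline in both genotypes, 5 of 6 called in each. The same arm was called lower for 3 of 6 genes at 40 h in both genotypes, against 36.5% of all genes called in WT and 35.6% in KO. At 48 h it was called lower for 6 of 6 in both (31% and 36% of all genes). At 4 weeks the arm was called lower for 4 of 6 in WT (1.17%). In KO (8.57%) the arm had 0 of 6 called then, and 2 had an unadjusted p under 0.05. It was called for 0 of 6 at 30 h and 7 days in either genotype, with none at an unadjusted p under 0.05 by edgeR. The hour of collection is not given in the labels. The baseline libraries differed among themselves in the mean log2 CPM of the Arntl arm of clock genes minus that of the Dbp arm. It was -3.63, -3.89 and 0.520 in WT replicates 1, 2 and 3, and -4.03, 0.175 and -1.61 in those of KO. Markers of monocytes and neutrophils rose: 4 of 6 tested of a list of 8 in WT, with a summed level of 1.07 to 1.83 CPM at baseline and 8.09 to 12.5 CPM at 24 h, and 2 of 6 in KO, with 2.37 to 5.21 and 5.76 to 14.4 CPM. In the WT baseline libraries S100a8, Retnlg and Mpo of that list were at 0 counts, and Retnlg in those of KO. In KO at 4 weeks (8.57% of all genes called) 6 of 8 endothelial markers were lower than at baseline, with a summed level of 114 to 122 CPM against 205 to 217 CPM. In WT at 4 weeks 0 of the 8 were called, with 3 at an unadjusted p under 0.05 by edgeR. Of 8 stellate cell markers, 3 were lower in KO at 4 weeks and 5 at 7 days (5.56%), against 0 and 1 in WT. In KO at 30 h (33.1%), 5 of 8 endothelial markers were lower, and of 8 Kupffer cell markers 3 were lower and 1 higher. At 24 h, 4 of 5 cholangiocyte markers tested were higher in WT (22.4%) and 1 of 5 in KO (23.7%). Hepatocyte markers did not move as a list at 4 weeks in KO (0 of 8 called), and at 24 h 2 rose and 2 fell in WT. The part of these changes in the members' values was not tested.

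Members varied together from library to library. For each library, those labelled 96 h included, the deviation of log2 CPM from its group mean was taken. All 45 pairs of members were correlated over the 45 libraries with permutations within groups. Of these pairs, 29 had a permutation p under 0.05 after Benjamini-Hochberg adjustment, all positive. No share for pairs of other genes is given here, so this count is not shown to be particular to the members. Gstm1 and Gstm3 were closest, with Pearson r = 0.905 and Spearman rho = 0.831 (adjusted permutation p = 0.0003 and 0.000225, from raw values of 1e-05, the smallest that 100000 permutations can give), and r = 0.857 without the 2 libraries farthest from the median of Gstm1. Gsta3 and Gstt1 also went together (r = 0.747, rho = 0.696, adjusted permutation p = 0.00116 and 0.00112, r = 0.736 without 2 libraries). Gsta3 and Gstm3 did not (r = -0.0746, rho = -0.0854, adjusted permutation p = 0.666 and 0.667, r = -0.107 without 2 libraries). The points share the scaling of each library, and cells of a type cannot be told from RNA per cell here. In KO at 48 h, replicate 1 was the highest library for 9 of 10 members and replicate 3 the lowest for 7. Of the libraries labelled KO at 96 h, replicate 3 was the highest for 9 members and replicate 1 the lowest for 8. At 7 days, replicate 3 was the highest library for 10 of 10 members in WT and again in KO.

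**Figure D5:**
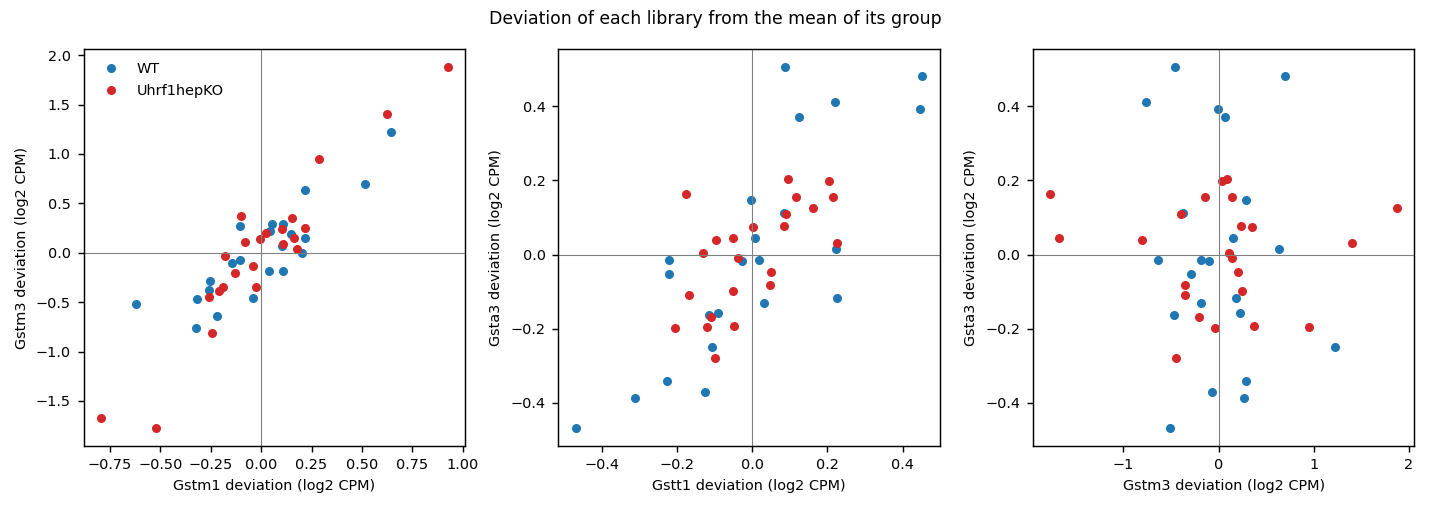
Deviation of each of the 45 libraries, 96 h included, from its group mean (log2 CPM) for 3 pairs of members, WT in blue and Uhrf1hepKO in red. Gstm1 and Gstm3 lie along a line (r = 0.905), as do Gstt1 and Gsta3 (r = 0.747), while Gstm3 and Gsta3 do not (r = -0.0746).

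Over the means of the 14 groups other than 96 h, the genes most like the 2 called members by Pearson correlation of log2 CPM were listed as a description. For Gstp2 they were Magea2 (r = 0.964), Rhox5 (0.956) and Gm14222 (0.948). For Gstp1 they were the pseudogene Gstp-ps (0.947), with which it shares transcript sequence, C4a (0.915) and Ccdc39 (0.906).

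Of the wider pathway, little was called between the genotypes in the average over the 7 conditions, by edgeR with 2.13% of all genes called. Among 15 genes tested of the list of other glutathione S-transferases, 1 was higher, Ptges (log2 1.71 ± 0.46, adjusted p = 0.0378). It encodes a membrane prostaglandin E synthase. Of 30 genes of glutathione synthesis and use, 1 was higher, the conjugate exporter Abcc3 (0.46 ± 0.10, adjusted p = 0.00424). Of 25 NRF2 pathway genes, 3 were higher and none lower: Pgd of the pentose phosphate pathway (0.37 ± 0.08), Ugdh, which makes UDP-glucuronate (0.31 ± 0.07), and the epoxide hydrolase Ephx1 (0.29 ± 0.08). Of 24 CAR, PXR and AhR targets, 1 was higher, Cyp3a11 (1.00 ± 0.22, adjusted p = 0.00835). Their medians were 0.08, -0.005, 0.11 and 0.03, against -0.005 over all genes and 0.22 over the members.

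Sex-biased liver genes were included since Gstp1 is one. In the same average by edgeR, with 2.13% of all genes called, 1 of 17 male-biased genes was lower, Susd4 (-0.82 ± 0.12, adjusted p = 4.39e-05). Of 11 female-biased genes 2 were higher, Cyp2a4 (1.89 ± 0.50) and Cyp17a1 (1.14 ± 0.26). An unadjusted p under 0.05 was found for 7 of the 17 and 6 of the 11, against 1491 of all 14090 genes. The medians of the male-biased and female-biased genes were -0.17 and 1.14. The sex of the mice is not stated in the labels used here, and its part in the Gstp1 difference was not tested.

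After hepatectomy these lists also changed. At 24 h in WT, where 22.4% of all genes were called, 6 of the 15 other glutathione S-transferase genes fell and 2 rose, and 11 of 24 CAR, PXR and AhR targets fell and 2 rose. Of the NRF2 pathway genes 8 of 25 were higher and 2 lower at that time in WT, and the same counts were found in KO, where 23.7% of all genes were called. At 4 weeks in KO, with 8.57% of all genes called, 10 of 25 NRF2 pathway genes and 4 of 15 other glutathione S-transferase genes were higher than at baseline, none lower, against 1 of 25 and 0 of 15 in WT, with 1.17% of all genes called, where 4 of those 15 had an unadjusted p under 0.05. The difference between the genotypes in these counts was not tested.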

How the data were processed

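Polyadenylated RNA of mouse liver was sequenced as 100 bp paired-end reads, per the labels' protocols, in 45 libraries of 16 groups. The authors deposited a table of whole-number gene counts and a table of FPKM. Per the submitters' processing notes the tools were FastQC 0.11.5, Trimmomatic, TopHat2 2.1.0, Cufflinks 2.2.1, HTSeq and DESeq2, with build mm10. For the gene annotation, the strand setting and the handling of reads that fit several genes, the sources used here give nothing.

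The deposited counts were tested with edgeR 4.0.16 in R 4.3.3 (TMM factors, filterByExpr, 16 group means, robust quasi-likelihood fit, 29 residual degrees of freedom). Calls were made at 0.05 on p-values adjusted by Benjamini-Hochberg across the 14090 genes tested, and ± beside a log2 difference is its standard error. Total counts were 12851359 to 23133501 per library, and the members' lowest counts, 3 for Gsta1 and 11 for Gstp2, give the widest counting error. KO was compared with WT in each condition and in the mean of the 7 conditions other than 96 h, each time with baseline within a genotype, and the courses by genotype by time terms. The deposited FPKM were tested with limma 3.58.1 on log2(FPKM + 0.1), for genes with a mean FPKM of at least 0.5. DESeq2 1.42.0, other size factors and filters, summed Gstp1 and Gstp2 counts, replicate blocks and leaving out each library were tried as alternatives. The edgeR fit was tested on simulated data.

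All members and Uhrf1 are named, with up to 3 called genes of each other list in a comparison, those with the largest log2 difference, and the 3 genes most like Gstp1 and Gstp2. Bglap3 and Rhox5 were named for the check of labels. The members and lists were chosen with earlier results of these data known. No 2 libraries of a group were near copies: the lowest chi-square per degree of freedom between replicates was 18.8.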

Additional observations from a re-analysis of the deposited data

Results flagged for a closer look

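Gstp2 differed between the genotypes in its course once 96 h was included. Its genotype by time term at 96 h was -2.219 ± 0.598 (log2, SE, edgeR quasi-likelihood test, adjusted p = 0.0379), where 2.91% of all genes were called. The joint test of all 7 genotype by time terms gave an adjusted p of 0.0009736 for Gstp2, the 1 member called of 10, against 1.41% of all genes. Both values rest on the libraries labelled WT at 96 h, which held 6.88 to 17.6 CPM of Gstp2 and had Bglap3 and Rhox5 levels outside the range of the other WT libraries. Without 96 h the joint test did not call Gstp2 (adjusted p = 0.703).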

How the results depend on the processing

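The 5 genotype calls over members and conditions became 8 with DESeq2, which added Gstp2 at baseline (adjusted p = 0.0109) and 24 h (0.00112) and Gstm3 at 30 h (0.0393), 0 with Gstp1 and Gstp2 summed, and 0 in each of the 3 limma fits on FPKM. They numbered 4 to 6 when each library was left out. All 5 calls were of Gstp2, and the sum is nearly all Gstp1 counts, so the 0 with the sum does not test them. The 2 members called in the mean of the 7 conditions became 0 with the sum and 0 in all FPKM fits, and 1 to 2 without 1 library. The Gstp2 difference of 3.02 turned to -0.20 in FPKM, with 2.94 to 3.12 without 1 library. The sum, at -0.34, follows Gstp1 and does not test the Gstp2 difference. In FPKM it was 0.47 at 30 h, not called, -0.22 at 40 h, -0.16 at 48 h, -0.087 at 7 days and -0.18 at 4 weeks. The Gstp1 difference of -0.37 was -0.34 in the sum and -0.30 in FPKM, neither called, and -0.42 to -0.32 without 1 library. Why counts and FPKM differ was not tested.

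Time calls fell from 24 to 15 in WT and from 28 to 16 in KO with FPKM and no filter, and were 17 to 23 and 20 to 33 without 1 library. Of the 52, DESeq2 kept 52, edgeR without a filter 43 and FPKM with 0.1 added 36. The joint test called 0 members, and 1 with 96 h. Without 1 library it stayed at 0, as did the single genotype by time terms. Over all genes that joint test called 6 with edgeR, 49 with DESeq2, 3 without a filter, 3 on the 39 libraries other than 96 h and 0, 6 and 42 in FPKM (0.1 added, 1 added and no filter). The 1 call at 96 h became 0 in FPKM and 0 to 2 without 1 library.

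Same-numbered KO and WT libraries of a condition were not paired by the labels or by the data (21 pairs, r from -0.306 to 0.306, 8 above 0.1). A pairing of baseline with 40 h libraries was not tested on its own. With the replicate number as a block within conditions, 6 genotype calls were made, the Gstp2 difference was 2.93, the Gstp1 difference -0.45 and the 96 h count 2. As an additive block it kept 49 of the 52 time calls. Over all genes the joint test called 1 and 2 with these blocks. Depth limits Gstp2 most in WT, where libraries other than 96 h held 11 to 50 counts.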
